A study of Homo sapiens with 6 samples.

Results

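The genes described here act at or downstream of the TNF receptor complex as ubiquitin editors, adaptors or feedback regulators, and were followed in RCC4 cells: TNFAIP3, TNFAIP2, TNIP1, TNIP2, BIRC2, BIRC3, TRAF1, TRAF2, TRAF3 and CYLD. They were chosen by name, with earlier results of these data known, and all 10 were found among the 61541 genes counted in each library. RCC4 is an established human line derived from clear cell kidney cancer. Of 6 cultures 3 were left untreated, and 3 received a mixture of tumour necrosis factor (TNF, 25 ng/mL) and interferon gamma (IFNγ, 1000 U/mL) that stayed on for 24 h. Each replicate was drawn from 3 flasks. The libraries are direct RNA nanopore reads, in which each read is 1 poly(A) RNA molecule. Both cytokines were given together, so the part of each cannot be told apart, and the data describe 1 cell line at 1 time. The comparison asks how RNA levels of these genes differ after exposure to the pair of cytokines.

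When TNF binds its receptor TNFR1, the adaptors TRADD and TRAF2, the kinase RIPK1 and the ubiquitin ligases BIRC2 and BIRC3 (cIAP1 and cIAP2) gather at its cytoplasmic tail. Ubiquitin chains built there recruit the TAK1 and IKK kinases, which release NF-kappaB to the nucleus. TNFAIP3 (A20) and CYLD remove or edit these chains, with TNIP1 and TNIP2 (ABIN-1 and ABIN-2) as ubiquitin-binding partners of A20. Several of these regulators are themselves known NF-kappaB target genes, which makes the circuit a feedback loop.

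Sequences before the gene starts are shown for TNFAIP3 and for 2 pairs of family members whose RNA values are compared further on, BIRC3 with BIRC2 and TRAF1 with TRAF3. They were searched for the NF-kappaB consensus, a 10-base motif. All 10 genes were matched by symbol to RefSeq promoter sequences (GRCh38.p14), which gave 16 windows of 250 bases before an annotated start. Below are 5 of them, on the strand of the gene and 5′ to 3′, ended where the deposited annotation places the first base of the gene. Capitals mark matches to the consensus on either strand.
TNFAIP3, chr6:137867009-137867213, plus strand: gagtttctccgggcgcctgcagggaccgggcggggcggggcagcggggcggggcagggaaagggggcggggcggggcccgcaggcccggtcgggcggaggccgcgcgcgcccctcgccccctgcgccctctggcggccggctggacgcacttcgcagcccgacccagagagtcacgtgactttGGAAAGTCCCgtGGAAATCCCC
BIRC3, chr11:102317234-102317449, plus strand: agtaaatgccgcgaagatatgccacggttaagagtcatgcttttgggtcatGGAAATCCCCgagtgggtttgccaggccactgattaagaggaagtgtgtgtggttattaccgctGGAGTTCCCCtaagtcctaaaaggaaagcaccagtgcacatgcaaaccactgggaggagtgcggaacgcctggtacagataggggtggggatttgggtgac
BIRC2, chr11:102346964-102347210, plus strand: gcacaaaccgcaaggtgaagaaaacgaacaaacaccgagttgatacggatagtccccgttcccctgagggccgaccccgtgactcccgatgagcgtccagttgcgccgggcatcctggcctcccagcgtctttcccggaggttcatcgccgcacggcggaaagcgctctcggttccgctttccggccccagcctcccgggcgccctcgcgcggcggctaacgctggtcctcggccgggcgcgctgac
TRAF3, chr14:102777199-102777448, plus strand: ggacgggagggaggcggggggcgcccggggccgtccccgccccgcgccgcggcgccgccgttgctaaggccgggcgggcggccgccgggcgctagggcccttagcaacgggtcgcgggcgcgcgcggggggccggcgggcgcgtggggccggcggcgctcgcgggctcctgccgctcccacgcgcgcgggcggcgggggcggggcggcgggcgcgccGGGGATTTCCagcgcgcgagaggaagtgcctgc
TRAF1, chr9:120929174-120929421, minus strand: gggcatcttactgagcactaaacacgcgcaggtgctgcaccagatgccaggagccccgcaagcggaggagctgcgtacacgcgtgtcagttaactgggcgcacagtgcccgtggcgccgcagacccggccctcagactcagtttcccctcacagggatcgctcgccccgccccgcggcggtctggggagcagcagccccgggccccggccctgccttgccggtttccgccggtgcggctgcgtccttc

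The TNFAIP3 window held 2 matches, GGAAAGTCCC from -67 to -58 and GGAAATCCCC from -55 to -46 relative to the RefSeq start, both on the opposite strand. BIRC3 also held 2, GGAAATCCCC from -199 to -190 and GGAGTTCCCC from -135 to -126. A TNIP1 window at an internal start held GGGACTTTCC from -42 to -33, and a CYLD window held GGAAAGTCCC from -189 to -180. TRAF3 held GGGGATTTCC from -33 to -24. No window of TNFAIP2, TNIP2, BIRC2, TRAF1 or TRAF2 held a match, which says nothing of sites elsewhere. The only windows of TNFAIP2 and TRAF2 lie past the first base of the gene in the deposited annotation, so the bases before it were not searched. Windows with a match made up 5 of the 16 member windows, and 9.96% of all 35116 windows in the table. The motif TTCNNNGAA, a pattern bound by STAT factors, was found in 1 of the 10 members, TNIP2, as TTCCGGGAA from -34 to -26, and in 8.09% of all genes in the table. The letters GAAA, any 2 bases and GAAA, a pattern of interferon-responsive elements, was found in 0 members and in 3.71% of all genes. Both strands were searched for each motif, and a match to both strands at 1 position was counted once. These matches are a description of sequence and not of binding.

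Library totals ran from 3626000 to 4406296 counts, so that 3 counts, the limit that a count of 0 allows, stood at 0.677 to 0.866 CPM (counts scaled to TMM-normalised library size). All 8 markers of renal carcinoma and renal epithelium were measured, among them PAX8 (145.5 ± 16.4 CPM untreated and 84.1 ± 11.5 treated) and VIM (4616 ± 310.6 and 7314 ± 907 CPM; SD, n = 3 each). Of these 8, VIM rose and PAX8 fell. Of 6 leukocyte markers 5 had 0 counts in every library, as did all 3 endothelial markers and 3 of 4 fibroblast markers. CD14 had at most 1 count in a library, and COL1A1 had 86 to 278. In edgeR's quasi-likelihood test 562 of 10067 genes tested (5.58%) were higher and 257 (2.55%) lower after treatment at an adjusted p under 0.05. Scaling to library totals alone gave a split of 485 higher and 364 lower, and moved the median over all genes from -0.03 to -0.13 on the log2 scale.

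Of the 10 genes, 6 rose and 0 fell by that test, against 5.58% of all tested genes higher. The 6 were TRAF1, TNFAIP3, BIRC3, TNFAIP2, TNIP1 and CYLD, with fitted changes from 18.0-fold for TRAF1 to 2.23-fold for CYLD. TNIP2, TRAF2, BIRC2 and TRAF3 did not pass the threshold. BIRC3 met the filter on low counts (2.59 CPM in 3 libraries, before TMM) in 1 untreated and 3 treated libraries, so it was tested because of its treated level. The other 9 met it in all 3 untreated and all 3 treated libraries, so their untreated level was enough. All 10 had a positive log2 fold change, with a median of 1.26 against -0.03 over all tested genes. In 8 of the 10 the treated range in CPM lay wholly above the untreated range, which held for 13.9% of all tested genes, and in 0 it lay wholly below (12.0%). Summed over the 10, untreated cells held 469.2 ± 67.4 CPM and treated cells 1459 ± 157 CPM (SD, n = 3 each), a ratio of 3.11. In bulk RNA, more cells that express a gene and more RNA per cell cannot be told apart.

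**Figure D1:**
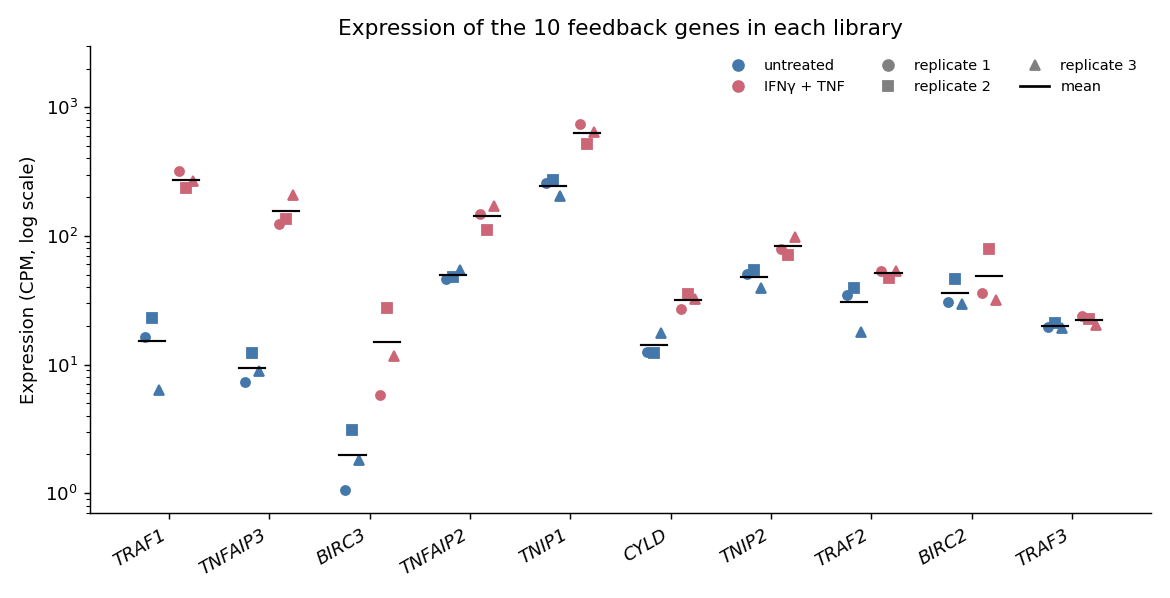
Expression of the 10 genes in CPM (log scale) in each of the 3 untreated (blue) and 3 treated (red) libraries, with marker shape for the replicate and a bar for the group mean. TRAF1 and TNFAIP3 are separated most, BIRC3 spans 5.78 to 27.3 CPM within the treated group, and TRAF3 lies near 20 CPM in all 6 libraries.

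Among the ubiquitin editors, TNFAIP3 (ENSG00000118503; chromosome 6, 137867214 to 137883312), which encodes A20, had 7.33, 12.2 and 8.88 CPM in untreated replicates 1, 2 and 3 and 124.2, 135.2 and 207.9 CPM in treated replicates 1, 2 and 3. The lowest treated value was far above the highest untreated one, and treated replicate 3 was the highest of all. The fitted change was 16.4-fold (95% interval 10.3 to 26.1; log2 fold change 4.04, SE 0.30), with an edgeR adjusted p of 4.39e-05. By log2 fold change it ranked 101st of 10067 tested genes. On the opposite strand the long non-coding gene WAKMAR2 covers 1.89% of the exonic bases of TNFAIP3, and it had at most 2 counts in any library.

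CYLD (ENSG00000083799; chromosome 16, 50742050 to 50801935) encodes a deubiquitinase that trims lysine 63-linked and linear chains. Its levels were 12.6, 12.4 and 17.5 CPM in untreated and 27.1, 35.2 and 32.5 CPM in treated replicates 1 to 3. The groups did not overlap, but the gap was narrower than for TNFAIP3. The change was 2.23-fold (95% interval 1.53 to 3.23), with an edgeR adjusted p of 0.0175. The call was lost without untreated replicate 1 (edgeR adjusted p 0.0504), untreated replicate 2 (0.0951), treated replicate 2 (0.0591) or treated replicate 3 (0.0706), and with library totals alone (0.0506). Over the 13 alternatives the log2 fold change stayed between 1.04 and 1.33.

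TNIP1 (ENSG00000145901; chromosome 5, 151029945 to 151093577) encodes ABIN-1, which links A20 to ubiquitinated targets. It was the member with the most reads in every library, at 258.2, 272.0 and 202.9 CPM in untreated and 740.2, 513.9 and 645.2 CPM in treated replicates 1 to 3. The lowest treated library exceeded the highest untreated one. The change was 2.59-fold (95% interval 1.89 to 3.55), with an edgeR adjusted p of 0.00302.

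TNIP2 (ENSG00000168884; chromosome 4, 2741648 to 2756342), which encodes the related protein ABIN-2, had 50.3, 54.6 and 39.6 CPM in untreated and 79.1, 71.3 and 98.1 CPM in treated replicates. These groups did not overlap either. The log2 fold change of 0.78 (95% interval 0.31 to 1.25) gave an edgeR adjusted p of 0.0536, just outside the threshold. TNIP2 passed it in 3 of 13 alternatives, namely the DESeq2 test (adjusted p 0.0238), the edgeR fit with no filter on low counts (0.0200) and the edgeR fit with the replicate number as a block (0.00952).

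BIRC3 and BIRC2 encode the ligases cIAP2 and cIAP1 and lie side by side on chromosome 11 in the same orientation, with 7807 bases between them. BIRC3 (ENSG00000023445; 102317450 to 102339403) was read 4, 12 and 8 times in untreated replicates and 20, 121 and 41 times in treated ones, or 1.05, 3.10 and 1.82 against 5.78, 27.3 and 11.7 CPM. The groups did not overlap, while treated replicate 2 held most of the treated counts. The change was 7.47-fold with a wide 95% interval of 2.80 to 19.9, and the edgeR adjusted p was 0.0215. Without treated replicate 2 the log2 fold change went from 2.90 to 2.17 with an edgeR adjusted p of 0.0708. Without treated replicate 3 the adjusted p was 0.0555, and limma voom gave 0.0643.

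BIRC2 (ENSG00000110330; chromosome 11, 102347211 to 102378670) had 30.9, 46.5 and 29.8 CPM in untreated and 35.8, 78.8 and 31.7 CPM in treated replicates. The groups overlapped, and replicate 2 was the highest library in each. Its log2 fold change of 0.45 had a 95% interval from -0.36 to 1.27 and an edgeR adjusted p of 0.589, and without treated replicate 2 it turned to -0.04. Treated replicate 2 was thus the highest treated library for both neighbours. The mean exonic length of genes weighted by their counts was 4376 bases in that library. It was 4204 and 4238 bases in treated replicates 1 and 3, and 4238, 4275 and 4484 bases in untreated replicates 1 to 3. The part of this length in the levels of BIRC2 and BIRC3 was not tested.

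The TRAF genes encode adaptors that dock ligases on the receptor complex. TRAF1 (ENSG00000056558; chromosome 9, 120902393 to 120929173), the member of this family that lacks a RING domain, had 16.5, 23.0 and 6.38 CPM in untreated and 319.7, 235.2 and 267.5 CPM in treated replicates. No treated value came near the untreated ones, and untreated replicate 3 was the lowest library. The change was 18.0-fold (95% interval 9.58 to 33.8; log2 fold change 4.17, SE 0.40), with an edgeR adjusted p of 0.000265. Without untreated replicate 3 the log2 fold change was 3.79, and without untreated replicate 2 it was 4.59.

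TRAF2 (ENSG00000127191; chromosome 9, 136881912 to 136926607) carries BIRC2 and BIRC3 to the receptor. It had 34.6, 39.6 and 17.8 CPM in untreated and 53.4, 47.4 and 53.3 CPM in treated replicates. The groups were apart, with untreated replicate 3 again the lowest. The log2 fold change of 0.75 (95% interval 0.10 to 1.40) gave an edgeR adjusted p of 0.180. It passed in 1 of 13 alternatives, the fit with the replicate number as a block (edgeR adjusted p 0.0181).

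TRAF3 (ENSG00000131323; chromosome 14, 102777449 to 102911500) restrains the non-canonical NF-kappaB pathway by directing degradation of the kinase NIK. Its levels were 19.6, 20.9 and 19.1 CPM in untreated and 23.7, 22.6 and 20.3 CPM in treated replicates. The groups overlapped and the 6 libraries lay close together. The fitted ratio of 1.11 had a 95% interval of 0.808 to 1.54, so a change beyond 1.54-fold upward lies outside that interval (edgeR adjusted p 0.785).

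TNFAIP2 (ENSG00000185215; chromosome 14, 103121476 to 103137439) encodes a protein related to the exocyst subunit EXOC3 and not a ubiquitin editor. It had 46.6, 47.8 and 54.2 CPM in untreated and 148.7, 110.8 and 172.3 CPM in treated replicates. Untreated libraries were tightly grouped and all lay below the treated ones. The change was 2.90-fold (95% interval 2.09 to 4.03), with an edgeR adjusted p of 0.00202. TNFAIP2 and TRAF3 lie on the same strand of chromosome 14 with 209975 bases between them.

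**Figure D2:**
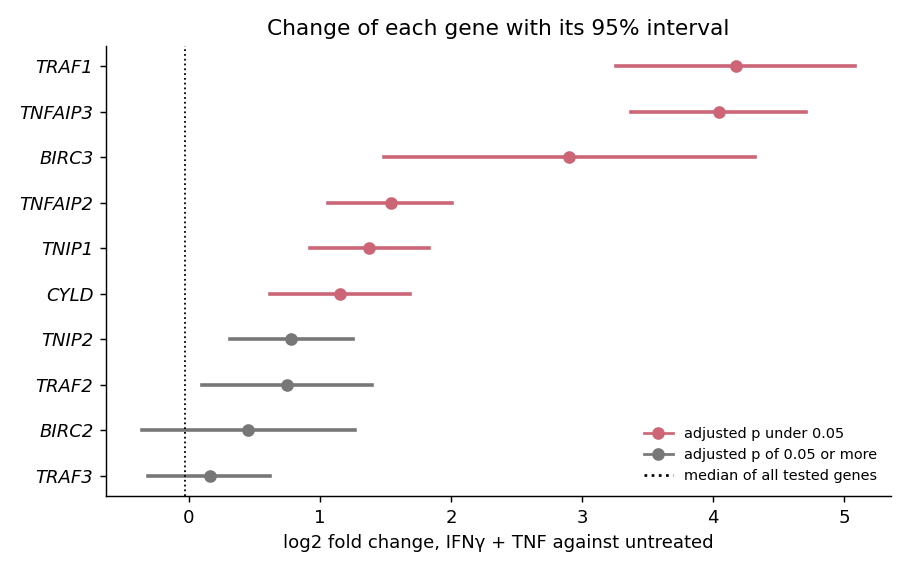
Log2 fold change of each gene (treated against untreated, edgeR) with its 95% interval, in red where the adjusted p was under 0.05, and the median of all tested genes as a dotted line. TRAF1 (4.17) and TNFAIP3 (4.04) lie farthest to the right, and the intervals of BIRC2 and TRAF3 include 0.

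Levels of different genes were set side by side as CPM per kilobase of exonic length. Since each read is 1 RNA molecule, CPM alone orders the genes by reads, and the division lowers genes of long exonic length. In mean CPM of untreated libraries, TNFAIP2 (49.5) was above TNIP2 (48.1) and BIRC2 (35.8) above TRAF2 (30.6). TRAF3 (19.9) was above TRAF1 (15.3) and CYLD (14.2) above TNFAIP3 (9.45). These pairs stand in the reverse order per kilobase. In untreated cells the order per kilobase from the highest was TNIP1 (42.2), TNIP2 (18.2), TNFAIP2 (9.80), TRAF2 (8.36), BIRC2 (7.92), TRAF1 (3.42), TRAF3 (2.40), TNFAIP3 (1.88), CYLD (1.09) and BIRC3 (0.265 CPM per kilobase). The ranges over the 3 libraries overlapped for TNFAIP2 with TRAF2, TRAF2 with BIRC2, TRAF1 with TRAF3 and TRAF3 with TNFAIP3, and were apart for the other adjacent pairs. In treated cells TNIP1 stayed first at 109 CPM per kilobase. In the order per kilobase TRAF1 moved from place 6 to place 2 at 61.2, and TNFAIP3 from place 8 to place 4 at 31.0. TNIP2 (31.2), TNFAIP3 and TNFAIP2 (28.5) overlapped as neighbours in that order. TRAF2 (14.0) overlapped BIRC2 (10.8), and TRAF3 (2.67), CYLD (2.44) and BIRC3 (1.99 CPM per kilobase) overlapped at the lower end. In mean CPM of treated libraries, TNFAIP3 (155.8) and TNFAIP2 (143.9) were above TNIP2 (82.9), and CYLD (31.6) was above TRAF3 (22.2). BIRC3 stayed last in both groups by either measure despite its rise.

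Counts within a library give ratios that no scaling between libraries can change. There were 35.2, 22.4 and 22.8 TNIP1 counts for each TNFAIP3 count in untreated replicates and 5.96, 3.8 and 3.1 in treated ones. For each CYLD count there were 0.583, 0.979 and 0.506 TNFAIP3 counts in untreated and 4.57, 3.84 and 6.39 in treated replicates. TNFAIP3 thus had fewer reads than CYLD in each untreated library and more in each treated one. In untreated replicate 2 the counts were nearly equal, at 47 for TNFAIP3 and 48 for CYLD. Per kilobase TNFAIP3 was above CYLD in both groups, since CYLD is divided by 12952 exonic bases and TNFAIP3 by 5023. These ratios compare the same pair across libraries and were not tested.

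Shares within 3 families were tested as 1 value per library. BIRC3 made up 3.28%, 6.25% and 5.76% of BIRC2 and BIRC3 counts in untreated and 13.9%, 25.7% and 27.0% in treated replicates. In treated replicate 2, where both genes were high, the share was close to that of replicate 3, and replicate 1 was the lowest treated library. TRAF1 made up 23.3%, 27.6% and 14.7% of TRAF1, TRAF2 and TRAF3 counts in untreated and 80.6%, 77.1% and 78.4% in treated replicates. TRAF1 was thus the minority of the 3 transcripts before treatment and the majority after it. TNIP1 made up 83.7%, 83.3% and 83.7% of TNIP1 and TNIP2 counts in untreated and 90.3%, 87.8% and 86.8% in treated replicates, a smaller shift from an already high share. The mean differences were 17.1, 56.8 and 4.77 percentage points, each with treated libraries above untreated ones in all 3 replicates. The exact permutation test (2-sided) gave p = 0.1 for all 3 shares, before and after adjustment over them by Benjamini-Hochberg. No smaller p exists for 6 libraries split evenly, so this test cannot pass 0.05.

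**Figure D3:**
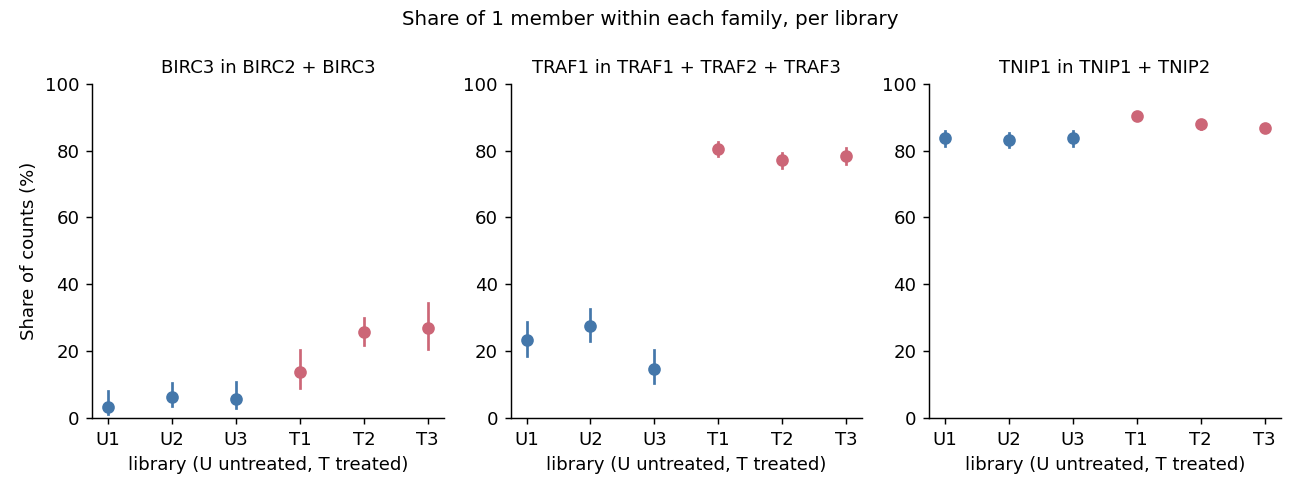
Share of counts (%) held by BIRC3, TRAF1 and TNIP1 within their families in untreated (U1 to U3, blue) and treated (T1 to T3, red) libraries, with 95% Wilson intervals that cover counting error only. All 3 treated libraries lie above all 3 untreated libraries in each panel, from 14.7% to 27.6% up to 77.1% to 80.6% for TRAF1.

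Of 51 other genes of the pathway, in 7 lists, 43 were tested, and 14 rose and 0 fell by edgeR (5.58% of all tested genes were higher). Their median log2 fold change was 0.39 against -0.03 over all tested genes. Of the receptor and death-domain list 4 of 6 tested genes rose. TNFRSF1A, which encodes TNFR1, averaged 79.3 ± 6.69 CPM before and 161.5 ± 24.0 CPM after treatment (SD, n = 3 each), with 1.03 as its log2 fold change (edgeR adjusted p 0.00800). CFLAR, the caspase-8 inhibitor c-FLIP, went from 86.2 ± 3.54 to 187.3 ± 13.9 CPM (log2 fold change 1.12, edgeR adjusted p 0.00292). CASP8 (log2 fold change 1.37) and RIPK1 (1.10) also passed, with edgeR adjusted p of 0.00709 and 0.0417. CASP8 was at 0.0501 without untreated replicate 2, and RIPK1 passed in 7 of 13 alternatives and had 0.171 without untreated replicate 2. TNFRSF1B, which encodes TNFR2, had at most 1 count in any library.

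Of the linear ubiquitin list 1 of 5 tested genes rose, beside 5.58% of all tested genes. RBCK1 (HOIL-1), a subunit of the linear chain assembly complex, averaged 340.5 ± 58.9 CPM before and 658.7 ± 127.8 CPM after treatment (SD, n = 3 each), with 0.95 as its log2 fold change (edgeR adjusted p 0.0216). Its call was lost without untreated replicate 1 (0.0689), untreated replicate 2 (0.114), treated replicate 1 (0.0636) or treated replicate 3 (0.0979). SHARPIN, another subunit, had a log2 fold change of 0.03, and OTULIN, which cleaves linear chains, one of -0.08. RNF31 (HOIP), the catalytic subunit, had at most 1 count in any library, and exons of another gene on its strand cover 68.4% of its exonic bases, where reads can go uncounted.

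Of the kinase complex list 1 of 10 tested genes rose, near the 5.58% of all tested genes that were higher, namely the IKK-related kinase gene IKBKE, whose mean of 24.4 ± 5.42 CPM became 81.6 ± 12.1 CPM (SD, n = 3 each), with 1.74 as its log2 fold change (edgeR adjusted p 0.00162). The TAK1 and core IKK genes MAP3K7, CHUK, IKBKB and IKBKG did not pass, with log2 fold changes of 0.07, 0.77, 0.55 and 0.50. Of the A20 partners TAX1BP1, ITCH and RNF11 none of the 3 tested passed, but exons of DYNLRB1 on the strand of ITCH cover 82.4% of its last 500 exonic bases, where reads can go uncounted. TNIP3, the third ABIN gene, had 0 counts in all 6 libraries. Of the other TRAF and IAP genes 0 of 6 tested passed, with log2 fold changes from -0.60 for BIRC6 to 0.43 for TRAF3IP2.

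Of the genes that share the TNFAIP name but have other functions, 2 of 4 tested rose and 0 fell by edgeR. Among all tested genes 5.58% were higher. TNFAIP1 (log2 fold change 1.07, edgeR adjusted p 0.0157) and TNFAIP8 (1.51, 0.0464) rose. TNFAIP6, which encodes a hyaluronan-binding secreted protein, was read 31, 79 and 150 times before and 7, 36 and 19 times after treatment (log2 fold change -1.98, edgeR adjusted p 0.0742). TNFAIP6 did not pass the threshold, and neither did TNFAIP8L1 (log2 fold change -0.13, edgeR adjusted p 0.907). TNFAIP8L3 had 0 counts in every library. The call of TNFAIP8 was lost in 6 of 13 alternatives, such as scaling by library totals (edgeR adjusted p 0.0992) or the fits without untreated replicate 2 (0.150) or treated replicate 3 (0.168). TNFAIP1 had 0.0635 without treated replicate 1. Of the NF-kappaB subunits and inhibitors 6 of 9 tested rose, beside 5.58% of all tested genes, led by NFKBIA (log2 fold change 1.63, edgeR adjusted p 0.00226), NFKB2 (1.57, 0.00296) and RELA (1.63, 0.00301). The others were BCL3, NFKBIE and RELB, and RELB lost its call without untreated replicate 2 (edgeR adjusted p 0.0543) or treated replicate 1 (0.116), 2 (0.0973) or 3 (0.143).

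**Figure D4:**
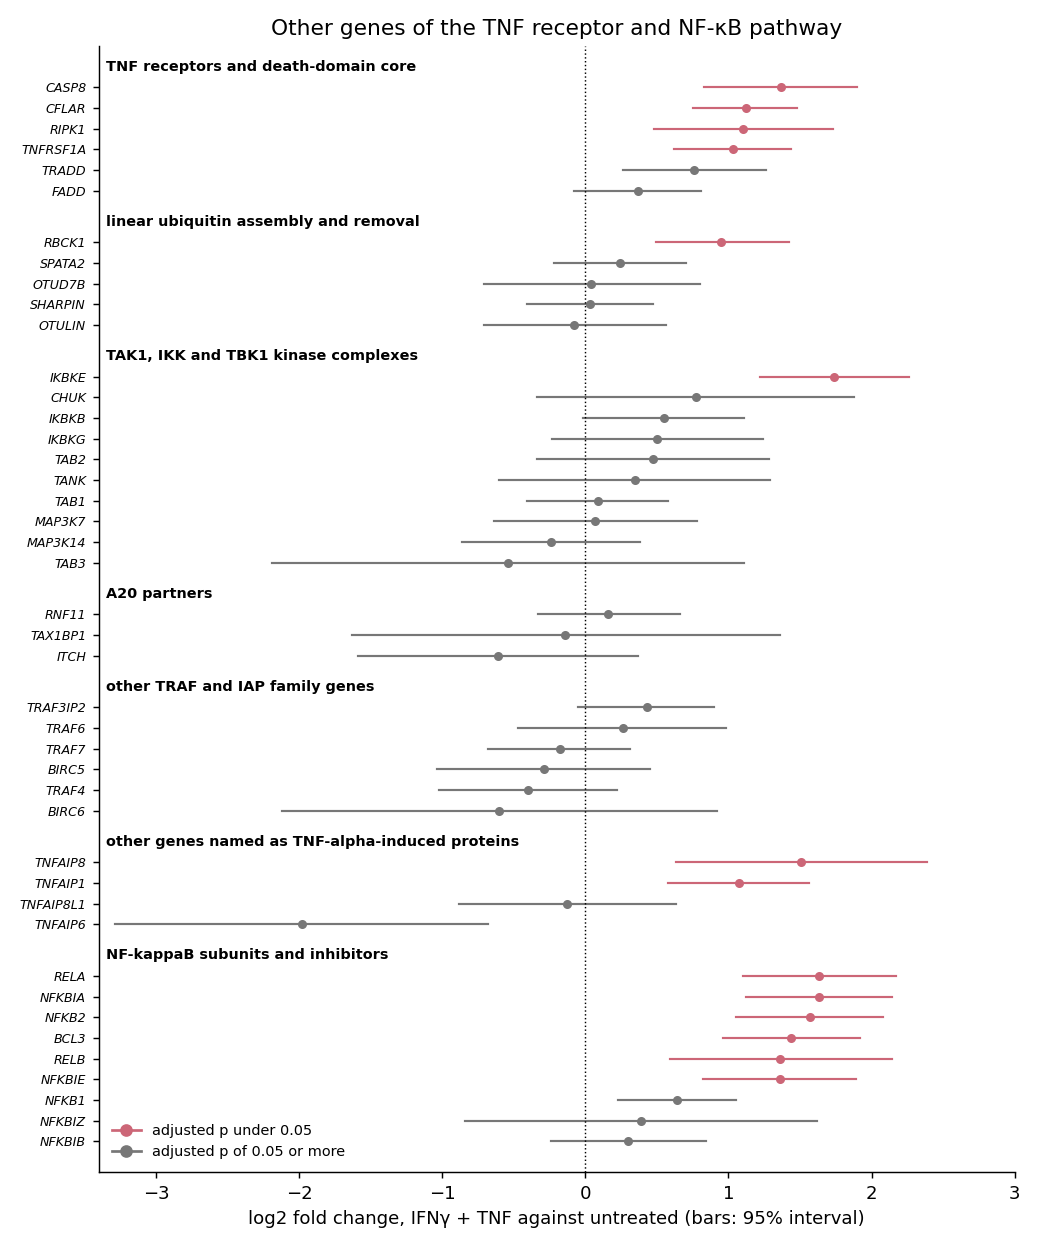
Log2 fold change (treated against untreated, edgeR) with 95% intervals for the 43 tested genes of 7 pathway lists, in red where the adjusted p was under 0.05. Red points lie to the right of 0 and sit mainly among the receptor core (4 of 6) and the NF-kappaB genes (6 of 9), with IKBKE the highest at 1.74.

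Genes next to the members were examined as the 2 nearest tested genes on each side, 34 genes in all. Of these, 3 rose and 0 fell by edgeR, against 5.58% higher among all tested genes, and their median log2 fold change was 0.11. EXOC3L4, which lies 10917 bases from TNFAIP2 and belongs to the same EXOC3-related family, was not read in any untreated library (0 counts) and stood at 3.58 ± 1.13 CPM after treatment (SD, n = 3), at least 4.78-fold higher against a floor of 3 counts per library. It met the filter on low counts through the treated libraries alone, so its test and its place among the 3 follow from that filter. GSN, which encodes the actin-severing protein gelsolin and lies 278621 bases from TRAF1, went from 14.4 ± 4.94 to 39.2 ± 5.57 CPM (edgeR adjusted p 0.0123). It had adjusted p of 0.0653 without untreated replicate 2 and 0.0618 without treated replicate 3. RNF4, near TNIP2, had a log2 fold change of 0.71 (edgeR adjusted p 0.0381), and lost the call in each of the 6 fits without 1 library, with 0.137 the highest, without treated replicate 3. The neighbours of TNFAIP3 include IFNGR1, a subunit gene of the IFNγ receptor that lies 647765 bases away. IFNGR1 had 14.5 ± 8.29 CPM before and 17.5 ± 6.42 CPM after treatment (edgeR adjusted p 0.838). None of the 4 neighbours of BIRC2 and BIRC3 passed, with log2 fold changes from -0.28 for TMEM123 to 0.23 for MMP1.

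The genes most like TNFAIP3 and BIRC3 were listed by Pearson correlation of log2 CPM over the 6 libraries, restricted to genes that average 10 CPM or more. For TNFAIP3 these were JUNB (r = 0.999), CFLAR (0.999) and CMPK2 (0.999). For BIRC3 they were DR1 (0.988), CAMK2G (0.983) and INHBA (0.979), of which DR1 and CAMK2G did not pass the edgeR test (adjusted p 0.322 and 0.364). The 6 points share the split into 2 groups, and the values carry no test.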

How the data were processed

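Poly(A) RNA (500 ng per library) was sequenced for 72 h, per the labels' protocols, and only reads with a quality score above 7 entered the analysis, per the labels' design text. The authors deposited whole-number gene counts from featureCounts 2.0.1 (long-read mode, Ensembl release 105 exons on GRCh38, stranded, no multi-mapping reads), per the file headers. The submitters' processing notes list minimap2 2.24, SAMtools 1.16 and featureCounts 2.0.0. The header of each file also contains "dmso", a vehicle that no label mentions, so groups follow the sample titles. Reads that fall on exons of several genes of 1 strand stay uncounted by default, and no member shares exonic bases with another gene on its strand.

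Of the 61541 genes 61369 took symbols from a gene name table and 159 from GENCODE 29. Counts were tested over all genes with edgeR 4.0.16 in R 4.3.3 (quasi-likelihood F test, TMM, filterByExpr, group as the sole term, Benjamini-Hochberg adjustment, threshold 0.05). CPM use TMM-normalised library sizes. Each SE is the size of the log2 fold change over the root of its F value, with 95% intervals from the test's degrees of freedom. Wilson intervals cover counting error only. Chi-square values per degree of freedom between replicates ran from 3.48 to 24.7, more than counting alone gives, so each library counted once, and all are labelled biological replicates. The scripts were tested on simulated data. Members, lists and the naming rule (all members, the pathway genes past the threshold with values for the 3 of smallest adjusted p per list, neighbours past the threshold, TNFRSF1A, and the 3 genes most like TNFAIP3 and BIRC3) were chosen with earlier results of these data known. Values of RIPK1 and RELB were added to show lost calls, and other pathway genes outside that rule, neighbours that did not pass, and PAX8, VIM, CD14 and COL1A1 among the markers, were named after their values were seen. Alternatives were DESeq2 size factors, library totals, 2 other filters, DESeq2 1.42.0, limma 3.58.1 voom, the replicate block and leaving out each library.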

Additional observations from a re-analysis of the deposited data

How the results depend on the processing

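TNFAIP3, TNFAIP2, TNIP1 and TRAF1 kept their direction and stayed past the threshold in all 13 alternatives, with log2 fold changes of 3.78 to 4.26, 1.39 to 1.75, 1.25 to 1.55 and 3.79 to 4.59. With 1 library left out in turn the ranges were 0.65 to 0.93 for TNIP2, -0.04 to 0.69 for BIRC2 (negative only without treated replicate 2), 2.17 to 3.35 for BIRC3, 0.46 to 0.98 for TRAF2, 0.11 to 0.22 for TRAF3 and 1.07 to 1.33 for CYLD. The number of the 10 genes called higher was then 4 to 6. TNIP2 passed with no filter on low counts (log2 fold change 0.81) and in the DESeq2 test (0.80), BIRC3 did not pass in limma voom (2.74), and CYLD did not with library totals alone (1.04). Over all genes, calls without 1 library numbered 358 to 733 higher and 96 to 445 lower, and the fit with no filter gave 849 and 479. Among the pathway lists, the receptor core had 2 to 4 genes called higher without 1 library (2 without untreated replicate 2), linear ubiquitin 0 to 1, and the other TNFAIP genes 1 to 2 higher and 0 to 1 lower; this last list had 1 higher with library totals alone and with limma voom, and 1 lower, TNFAIP6, with no filter and in the DESeq2 test. Neighbours called higher numbered 1 to 3 without 1 library, and 1 without untreated replicate 2 or treated replicate 3. The cause of these changes was not tested. Deviations of same-numbered libraries correlated at 0.651, -0.0037 and 0.374, so the numbers were not taken to pair the samples, and 2 of 3 untreated libraries correlated best with another number. The fit with the replicate number as a block gave 907 higher and 606 lower calls, TNIP2 at 0.78 and TRAF2 at 0.80 past the threshold, 5 neighbours higher, and 1 of the other TNFAIP genes lower. BIRC3 had 4 to 12 counts in untreated libraries, the fewest of the 10 genes.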
